A study of Mus musculus with 12 samples.

Results

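The effect of doxycycline was examined in MC38-idAdpgkG cells that had also received dTAG-13, by comparing the 3 doxycycline plus dTAG-13 libraries with the 3 dTAG-13 libraries. These are 6 of the 12 RNA-seq libraries of the study and were chosen by their treatment labels alone. The comparison covered 12910 genes that passed a filter on low counts, of 27179 gene IDs in the count table. MC38-idAdpgkG is 1 engineered derivative of MC38, a mouse colon carcinoma line of C57BL/6 origin, and carries a stably transfected construct for the neoantigen protein Adpgk(R304M) fused to turboGFP, which doxycycline turns on and dTAG-13 marks for degradation. Every culture received mouse IFN-gamma at 20 ng/mL for 51 h. Both groups compared here received 1 µM dTAG-13 for the last 3 h, and 1 of them also received 1 µg/mL doxycycline for all 51 h. The 3 libraries of a treatment are technical replicates of 1 treated culture, so each p-value below measures the spread between libraries of single cultures and not between cultures. The other 6 libraries, 3 with IFN-gamma alone (control) and 3 with IFN-gamma and doxycycline, served to ask whether the doxycycline difference was of another size without dTAG-13.

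Doxycycline is a tetracycline antibiotic that binds the transactivator of tetracycline-inducible promoters, and it also binds the mitochondrial ribosome, which is related to that of bacteria. The dTAG-13 molecule bridges a mutant FKBP12 tag on a fusion protein to cereblon, the substrate receptor of a ubiquitin ligase, and so acts on protein and not on the transcript. IFN-gamma signals through JAK kinases and induces guanylate-binding proteins, chemokines, the immunoproteasome and MHC class I, while type I interferons act through STAT2 and IRF9 on interferon-stimulated response elements.

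The 3 doxycycline plus dTAG-13 libraries, called the combined libraries below, held 22165538, 25259965 and 31257320 counted reads, and the 3 dTAG-13 libraries held 28200218 to 30194777. Of the 12 epithelial markers examined, none passed the filter and Epcam, Krt18, Cdx2, Cldn3 and Muc2 had no read in any of the 6 libraries, so the labelled colon carcinoma identity is not visible in epithelial transcripts. Leukocyte markers summed to 2.62 to 3.17 reads per 1000000 counted reads in the combined libraries and 2.02 to 2.80 in the dTAG-13 libraries, with Cd3e, Cd8a and Adgre1 at 0. Fibroblast markers summed on the same scale to 302 to 319 in the combined libraries and 363 to 373 in the dTAG-13 libraries, and endothelial markers to 1.94 to 3.17 and 3.58 to 4.33. Of the 9 fibroblast markers, Dcn (decorin) fell by 0.40 on the log2 scale, Pdgfrb rose by 0.68, Pdgfra was not called (-0.03) and the other 6 did not pass the filter. Reads on mitochondrial genes made up 3.147% to 3.342% of a combined library and 2.168% to 2.257% of a dTAG-13 library. One unnamed gene ID, Entrez100861531, took 0.997%, 1.13% and 1.83% of the reads of combined libraries 1 to 3, so library 3 stood apart from the other two.

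In edgeR's quasi-likelihood test, 20.4% of the tested genes differed at a Benjamini-Hochberg adjusted p under 0.05 (here, called), 10.7% higher and 9.64% lower with doxycycline. Scaling by library size alone shifted the median of all genes by -0.035 on the log2 scale and turned this split to 7.17% higher and 16.5% lower. Most differences were small: the median absolute log2 fold change of called genes was 0.17, and 1929 of the 2630 called genes differed by less than 0.25. The level ranges of the 2 groups did not overlap for 2493 of the called genes and for 34.3% of all tested genes. Of the tested genes, 0.565% were called at 2-fold or more. Doxycycline against control, in libraries that are not shared with this comparison, gave 33.5% called, 14.8% higher and 18.7% lower. The interaction test, which asks whether the doxycycline difference differs with and without dTAG-13, called 22.9% of genes, 13.2% more positive with dTAG-13 and 9.64% more negative. Of the 2630 genes called here, 1163 (44.2%) had a called interaction, as had 22 of the 73 called at 2-fold or more. The interaction contains the difference on which these genes were selected, so their share is not comparable with that of all genes. Doxycycline against control called 969 of the 2630 with the same sign and 362 with the opposite sign. At the gene list level, type I interferon-stimulated genes, chemokines, IFN-gamma response genes, transcripts of the mitochondrial genome, respiratory chain and ribosomal protein genes, mitosis genes and immediate early genes had medians above 0, and genes of glycolysis, hypoxia and lipid synthesis had medians below 0. The bulk libraries cannot tell a change per cell from a change in the share of cells that express a gene. As no strand setting is given, reads of genes that overlap another annotated gene are uncertain, which among protein-coding neighbours touches B2m, Psme1, Crbn, Galk1, Cd274, Cxcl10, Cxcl11, Ifit1, Ifit3b, Nfkb2, Ankrd37, Car9, Pfkm, Pfkp, Tpi1, Ddit3, Ccnd1, Atg9b, Aire, Hspe1, Pmpca, Tk1, Ccne2, Hyal1 and Col4a1 below, beside genes of the mitochondrial genome.

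**Figure D1:**
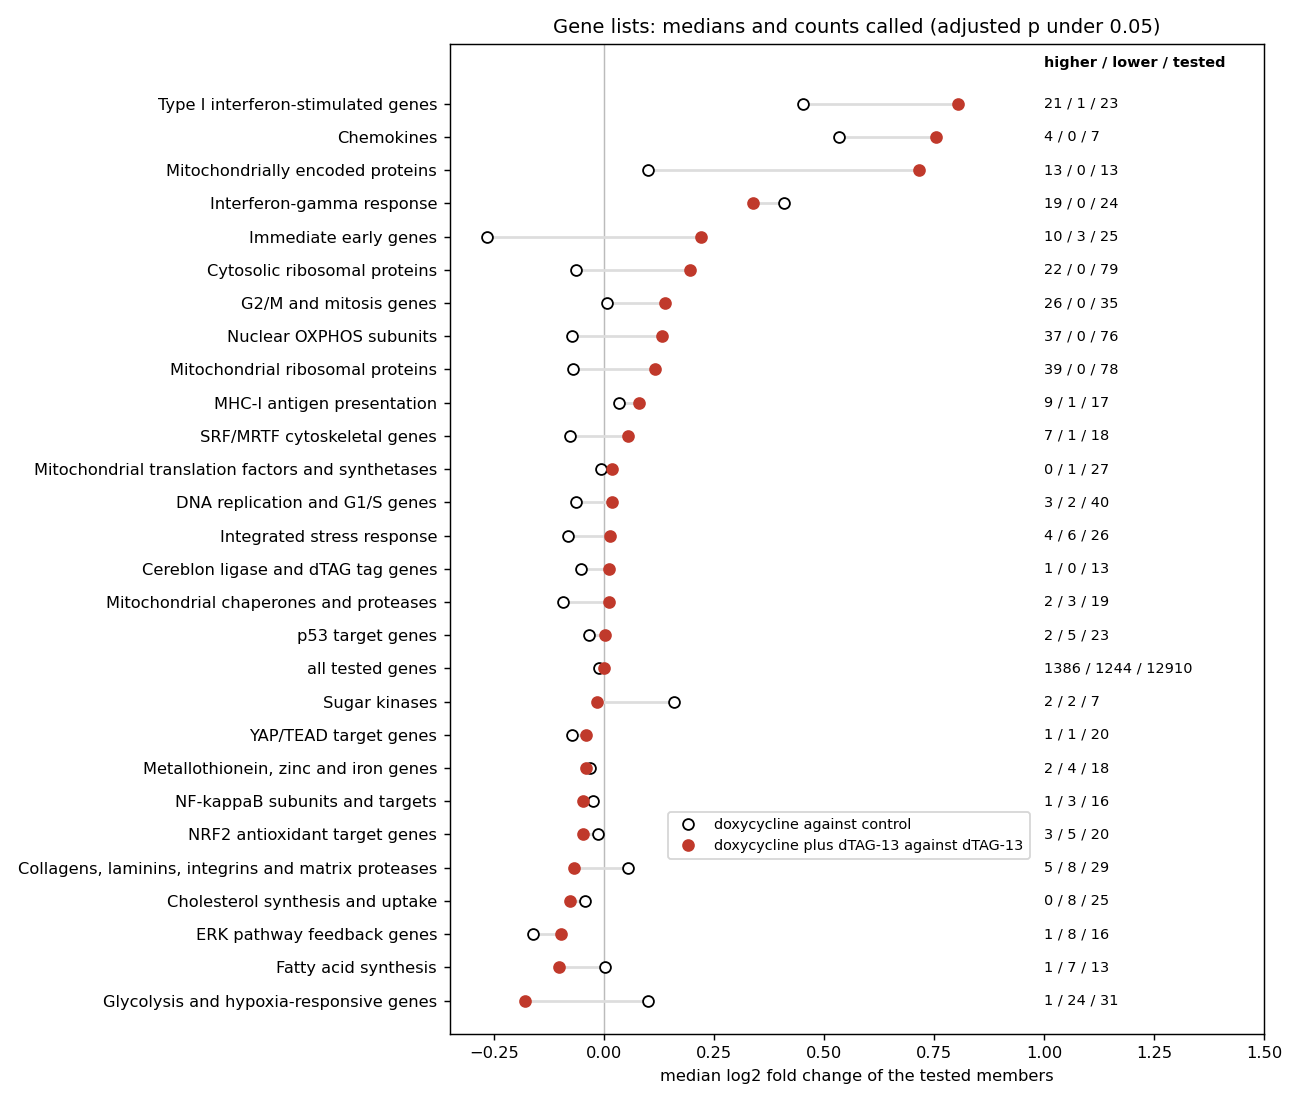
Median log2 fold change (x axis) of the tested members of each gene list (y axis) with doxycycline, in the presence of dTAG-13 (filled, combined against dTAG-13 libraries) and in its absence (open, doxycycline against control), with the numbers of members called higher, called lower and tested in the former at the right. The filled points run from 0.80 for type I interferon-stimulated genes to -0.18 for glycolysis and hypoxia-responsive genes, and the median of all tested genes lies at 0.

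Adpgk, which encodes ADP-dependent glucokinase and is the gene of the induced neoantigen (chr9:59291572-59316200, GRCm38.p6), had 1378, 1351 and 1379 CPM (counts scaled to a TMM-adjusted library size of 1000000 reads) in the combined libraries and 177, 182 and 185 CPM in the dTAG-13 libraries. All combined libraries were far above all dTAG-13 libraries, a 7.55-fold rise. Reads of the construct and of the cell's own gene cannot be told apart in these counts. The doxycycline rise was slightly smaller with dTAG-13 than without it, by 0.14 on the log2 scale (log2 fold changes of 2.92 and 3.06, interaction adjusted p = 0.00041). Mean levels were 161 CPM in the control and 1338 in the doxycycline libraries, against 181 in the dTAG-13 and 1369 in the combined libraries. The induced level was thus not lower with dTAG-13, while the level without doxycycline was higher. Among the other 6 tested sugar kinases, Galk1 (galactokinase) rose by 0.13, and Hk1 and Hk2, the hexokinases that start glycolysis, fell by 0.12 and 0.30. Of 13 tested genes of the cereblon ligase and the dTAG tag, 1 was called, where 20.4% of all tested genes were. This was Rbx1, the RING subunit of cullin ligases, at 69.1, 68.7 and 72.0 CPM in the combined libraries against 65.2, 65.2 and 62.2. The Rbx1 difference (log2 fold change 0.12, adjusted p = 0.020) was no longer called without combined library 3 or without dTAG-13 library 3, or with library size as the only scaling, under which 3 of the 13 were called lower and none higher. Crbn, encoding cereblon itself, had 28.9, 28.2 and 25.8 CPM against 26.2, 26.5 and 26.1, with overlapping ranges (adjusted p = 0.43). Fkbp1a, encoding the FKBP12 parent of the tag, had 507, 514 and 540 CPM against 534, 530 and 540, also overlapping (adjusted p = 0.23). Without combined library 3, or with library size as the only scaling, Fkbp1a was called lower.

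Outside the construct, the largest rises among genes of at least 1 CPM were those of Samd5 and Adgrg1. Samd5, a SAM domain protein gene, had 120, 151 and 155 reads in the combined libraries and 2, 1 and 0 in the dTAG-13 libraries, a CPM ratio of 164 with a 95% exact interval of 55.6 to 796 that covers counting error only. Adgrg1, encoding the adhesion G-protein-coupled receptor GPR56, had 48.2, 50.9 and 48.5 CPM against 0.353, 0.611 and 0.344, a log2 fold change of 6.80 ± 0.12 (SE). Both loci overlap annotated non-coding genes. Both genes were low in all 6 libraries without doxycycline, and neither passed the interaction test (adjusted p = 0.73 for Samd5 and 0.43 for Adgrg1). Col12a1, a fibril-associated collagen, had 1.74, 2.04 and 2.01 CPM against 0.353, 0.418 and 0.517. Csf3, encoding the cytokine G-CSF, had 6.06, 5.93 and 5.91 CPM against 1.90, 1.90 and 1.38. The rule that chose these genes required ranges without overlap, and the rises were 4.50-fold and 3.44-fold. Dpt (dermatopontin, a matrix protein) and Olfr288, an olfactory receptor gene, rose by 1.68 and 1.66 from under 1 CPM in every dTAG-13 library.

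**Figure D2:**
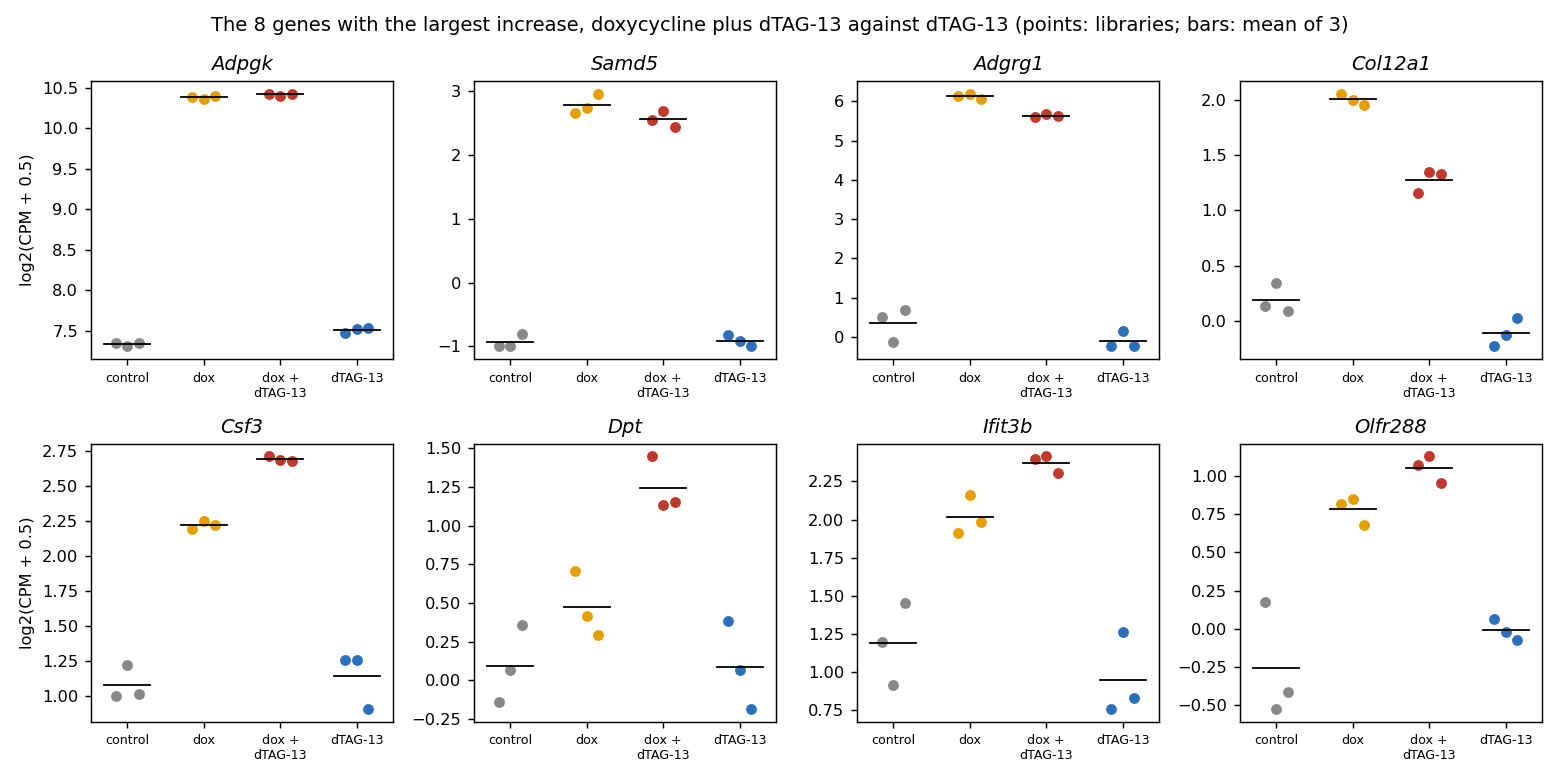
Level of the 8 genes with the largest rise, as log2(CPM + 0.5) on the y axis, in each of the 12 libraries (points) by treatment group on the x axis, with bars at the mean of 3. Only called genes of at least 1 CPM without overlap were eligible. The 3 combined libraries (red) therefore lie above the 3 dTAG-13 libraries (blue) in every panel by choice. Samd5 and Adgrg1 are near the floor in all 6 libraries without doxycycline.

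Of 23 tested type I interferon-stimulated genes, 21 rose with doxycycline among dTAG-13 treated cells and 1 fell, with a median log2 fold change of 0.80 against 0.00 over all tested genes. Of the latter, 10.7% rose and 9.64% fell. For 3 of the list whose promoters hold the response element, 100 bases of the RefSeq promoter (GRCm38.p6, strand of the gene) are shown, with matches to GAAANNGAAA or its reverse complement TTTCNNTTTC in capitals: Ifit1 at chr19:34640759-34640858 (+ strand), Ifit3 at chr19:34583362-34583461 (+ strand) and Rsad2 at chr12:26456518-26456617 (- strand).
Ifit1: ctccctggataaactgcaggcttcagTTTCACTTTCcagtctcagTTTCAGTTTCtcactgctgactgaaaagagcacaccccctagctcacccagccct
Ifit3: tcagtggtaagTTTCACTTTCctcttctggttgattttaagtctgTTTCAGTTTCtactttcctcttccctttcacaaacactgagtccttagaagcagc
Rsad2: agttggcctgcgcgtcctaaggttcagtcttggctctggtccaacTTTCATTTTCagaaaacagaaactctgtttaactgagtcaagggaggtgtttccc
The Ifit1 and Ifit3 windows hold 2 matches each and the Rsad2 window 1. Both strands of the 250 bases before the start were searched for this motif, which contains the core that IRF proteins bind. It was found for 8 of the 16 list genes with a RefSeq promoter (50%) and for 3.12% of the tested genes with one. On the IFN-gamma response list it was found for 9 of 15 such genes (60%), so it was not particular to the type I list. The Irf7 promoter held no match. A match is a description of these letters and not a measured site.

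Ifit1, an RNA-binding antiviral protein, had 21.2, 20.1 and 20.4 CPM in the combined libraries against 7.29, 7.59 and 8.78 in the dTAG-13 libraries. Ifit3, its partner, had 15.8, 15.6 and 15.6 CPM against 5.24, 5.25 and 7.03. Both stood well clear of the dTAG-13 range, with log2 fold changes of 1.38 ± 0.08 and 1.43 ± 0.09 (SE). Ifit3b, a near copy of Ifit3 whose reads the counting could have divided between them, rose by 1.68. Isg15, a ubiquitin-like modifier, had 67.3, 61.5 and 65.3 CPM against 38.5, 38.0 and 36.6, and Rsad2, encoding the antiviral enzyme viperin, had 32.7, 30.7 and 33.3 against 19.0, 18.1 and 19.1. Irf7, the transcription factor that amplifies interferon production, rose by 1.01, and the double-stranded RNA sensors Oas2, Oas3 and Oas1a rose by 1.45, 0.81 and 0.67. The cytosolic RNA helicases Dhx58, Ddx58 and Ifih1 rose by 0.83, 0.25 and 0.16. Ifit2, whose ranges overlapped, had a log2 fold change of 0.05 (adjusted p = 0.55). Isg20, encoding an RNA exonuclease, was the 1 member that fell, from 23.6, 24.3 and 23.7 CPM in the dTAG-13 libraries to 17.6, 15.2 and 16.9, and its range did not overlap either. Without dTAG-13, doxycycline raised 18 members and lowered none, with a median of 0.45. The interaction was called for 7 members: the doxycycline effect was more positive with dTAG-13 for 6, among them Ifit1 (by 0.43), Isg15 (by 0.41) and Bst2, encoding the viral tether tetherin (by 0.29), and more negative for Isg20 (by 0.59). Over all tested genes the interaction was called for 22.9%, 13.2% positive and 9.64% negative. The median interaction of the 23 was 0.06.

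**Figure D3:**
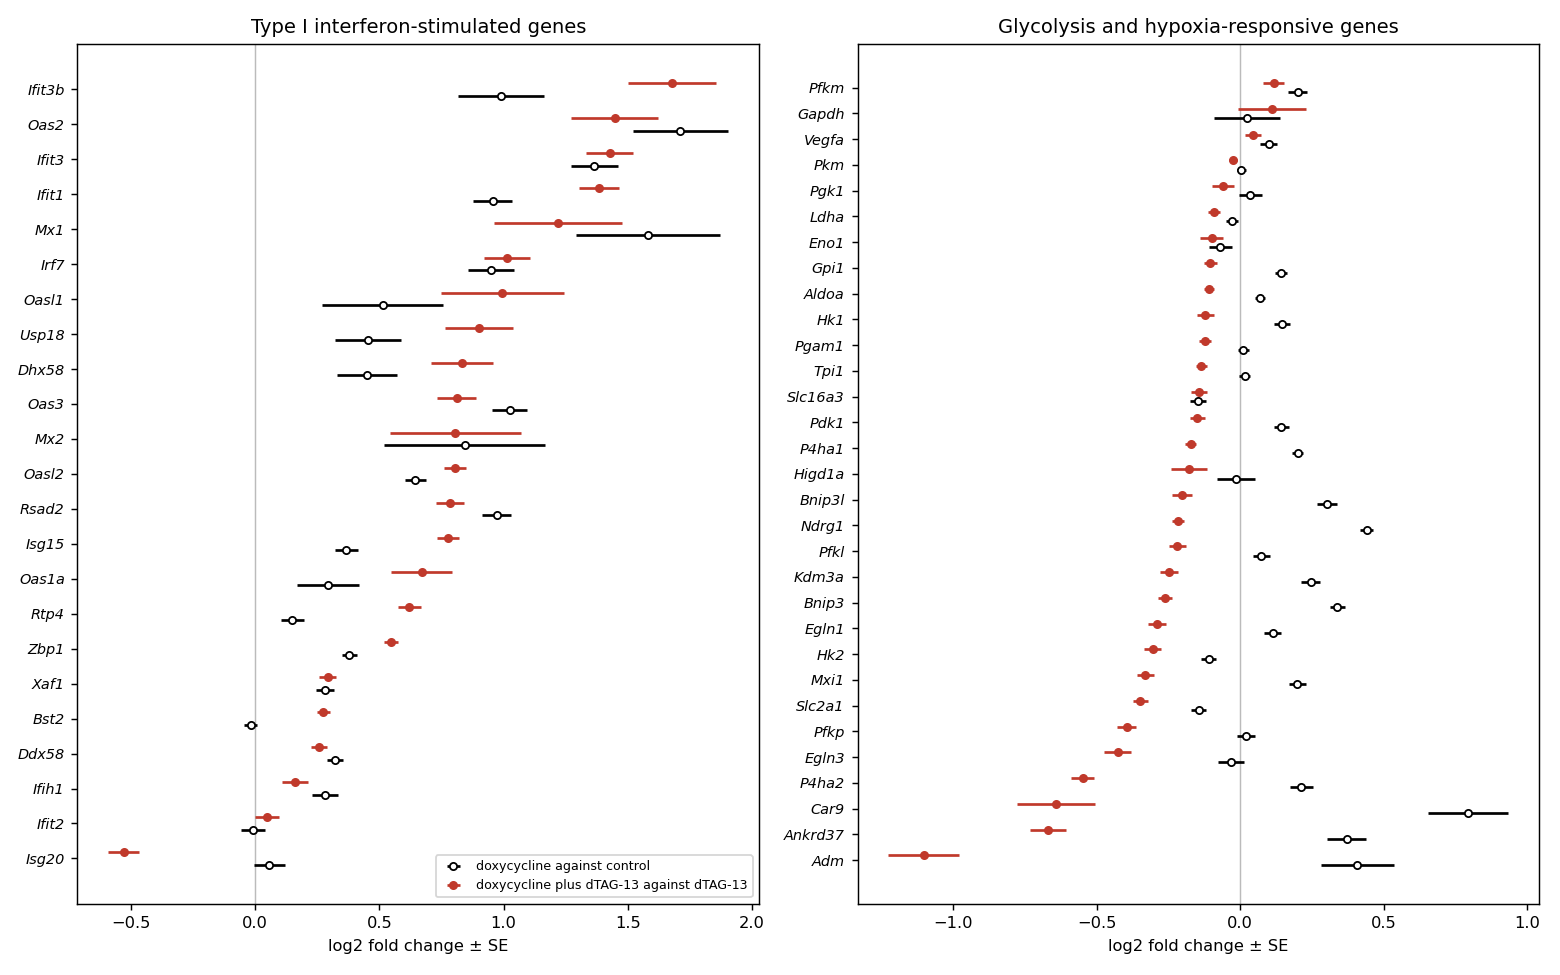
Log2 fold change with doxycycline (x axis, ± SE) of each tested type I interferon-stimulated gene (left) and each tested glycolysis and hypoxia-responsive gene (right), with dTAG-13 (filled) and without it (open). On the left both sets of points lie mainly above 0; on the right most filled points lie below 0, down to -1.10 for Adm, and 17 of the open points were called above 0.

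The IFN-gamma response list had 19 of 24 tested members higher and none lower, with a median log2 fold change of 0.34, although all libraries had received the same IFN-gamma. Over all tested genes 10.7% were higher and 9.64% lower. Gbp5, a guanylate-binding protein of inflammasome assembly, had 26.4, 31.4 and 27.7 CPM in the combined libraries against 15.7, 17.5 and 16.4. Cxcl10, the chemokine ligand of CXCR3, had 116, 119 and 114 CPM against 69.6, 68.8 and 68.0. Neither gene's ranges overlapped, and they rose by 0.79 and 0.75 on the log2 scale. Other rises ran from 0.72 for Gbp8 through 0.16 for Cd274, encoding PD-L1, to 0.07 for Irf1, a transcription factor of the response. Nos2, the inducible nitric oxide synthase, rose by 0.42 with dTAG-13 and by 1.62 without it, and the interaction was called (difference -1.21, adjusted p = 1.2e-08). In all, the interaction was called for 11 of the 24, negative for 8 and positive for 3. Over all tested genes it was negative for 9.64% and positive for 13.2%. The guanylate-binding proteins and the Irgm genes are families of similar sequence, so reads could have been divided between members.

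Of 7 tested chemokines, 4 rose, where 10.7% of all tested genes did. Ccl7 and Ccl2, ligands that attract monocytes, had 6.15, 6.68 and 6.93 CPM against 2.54, 2.54 and 2.44, and 55.8, 61.1 and 57.0 CPM against 35.4, 33.3 and 33.4. Cxcl1, a neutrophil attractant, had 10.8, 10.9 and 9.54 CPM against 5.62, 5.47 and 6.06. None of these ranges overlapped, and with Cxcl10 they gave log2 fold changes from 0.75 to 1.40. Cxcl9, Cxcl11 and Ccl5 did not pass the test, with log2 fold changes of 0.35, 0.59 and 0.10. Doxycycline without dTAG-13 raised the same 4 chemokines.

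In the MHC class I pathway, 9 of 17 tested genes rose and 1 fell, or 6 and 2 with library size as the only scaling. Over all tested genes 10.7% rose and 9.64% fell, or 7.17% and 16.5% with that scaling. The MHC regulator Nlrc5 had 88.1, 86.4 and 85.6 CPM against 71.2, 78.6 and 71.1, and the immunoproteasome subunit Psmb9 had 164, 166 and 166 against 147, 138 and 137. Both rose by 0.23 on the log2 scale without overlap, as did Psmb10 by 0.19, the peptide transporter subunit Tap1 by 0.18 and the proteasome activator subunit Psme1 by 0.17. The heavy chains themselves did not pass the test: H2-K1 had 1428, 1362 and 1440 CPM against 1410, 1402 and 1392 (log2 fold change 0.01, adjusted p = 0.90), and H2-D1 had 1348, 1290 and 1333 against 1331, 1306 and 1316 (0.01, adjusted p = 0.92). B2m, the light chain, had 2720, 2836 and 2651 CPM against 2480, 2508 and 2522. It was called at an adjusted p of 0.045, but not with offsets for the length and GC content of transcripts, where its log2 fold change was 0.01 instead of 0.13. The call was also lost without doxycycline library 3, without combined library 1 or 2, or without any 1 of the 3 dTAG-13 libraries. Canx, encoding the chaperone calnexin, fell by 0.10.

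All 13 protein-coding transcripts of the mitochondrial genome rose, with a median log2 fold change of 0.72 and values from 0.21 (mt-Co3, a complex IV subunit) to 1.02 (mt-Atp8, an ATP synthase subunit). mt-Nd1, a complex I subunit, had 2798, 2826 and 2729 CPM in the combined libraries against 1512, 1545 and 1512. mt-Cytb, the complex III cytochrome b, had 5346, 5686 and 5235 CPM against 3857, 3961 and 3892. The ranges of these 2 genes, and of the other 11, did not overlap, as was so for 34.3% of all tested genes and 2493 of the 2630 called. The complex I subunits mt-Nd4l, mt-Nd2 and mt-Nd4 rose by 1.01, 0.95 and 0.82, mt-Atp6 by 0.72, and the complex IV subunits mt-Co2 and mt-Co1 by 0.67 and 0.28. Coding regions of mt-Atp6 and mt-Atp8, and of mt-Nd4l and mt-Nd4, overlap, so their reads are not fully separable. mt-Rnr2, the large ribosomal RNA of the mitochondrion, had 2222, 2302 and 2295 CPM against 962, 972 and 988, a rise of 1.22, in libraries selected for poly(A). Without dTAG-13, 3 of the 13 rose with doxycycline and 4 fell, with a median of 0.10. The interaction was called for 11 of the 13, all more positive with dTAG-13, where 13.2% of all tested genes were. With these offsets for length and GC content, which left 18.3% of all tested genes called (9.75% higher and 8.51% lower), 10 of the 13 were called, with a median of 0.55. The interaction was called for 10 of the 13 with the offsets, all positive.

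Nuclear genes for mitochondrial ribosomal proteins rose in 39 of 78 tested, and none fell, with a median log2 fold change of 0.12, or 25 of 78 with library size as the only scaling. Mrpl12, a protein of the ribosome stalk, had 186, 185 and 182 CPM against 154, 156 and 156, and Mrpl41 had 29.02, 28.80 and 30.99 against 24.93, 25.13 and 24.25. Neither pair of ranges overlapped, with rises of 0.25 and 0.26. Doxycycline without dTAG-13 gave 2 rises and 22 falls on this list, and 48 interactions were called, all positive. Nuclear-encoded subunits of oxidative phosphorylation rose in 37 of 76 and none fell, with a median of 0.13. Ndufa6, a complex I subunit, had 30.7, 29.8 and 27.6 CPM against 22.3, 25.0 and 22.2, and Atp5l, an ATP synthase subunit, had 10.4, 10.1 and 8.97 against 8.42, 6.24 and 7.40. Both rose without overlap, by 0.34 and 0.41, but Atp5l was not called without dTAG-13 library 2 (adjusted p = 0.060). Without dTAG-13, 2 subunits rose and 20 fell with doxycycline, and all 44 interactions called were positive. Of all tested genes, 22.9% had a called interaction, 13.2% positive. With offsets for length and GC content, 34 interactions were called for the mitochondrial ribosomal list and 27 for the oxidative phosphorylation list, all positive. These offsets left 15.9% of all tested genes with a positive interaction.

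The other mitochondrial lists had 1 call of 27 and 5 of 19, where 20.4% of all tested genes were called, 10.7% higher and 9.64% lower. With library size as the only scaling, 7.17% of all tested genes were higher and 16.5% lower. Among 27 mitochondrial translation factors and tRNA synthetases, 1 was called, the release factor gene Mtrf1l, which fell by 0.27, and not without dTAG-13 library 2 (adjusted p = 0.055). With library size as the only scaling 4 of that list were called lower and the median was -0.02 instead of 0.02, and with length and GC offsets 3 were called lower. Of 19 mitochondrial chaperones and proteases, Hspe1 and Grpel1, co-chaperones of the matrix, rose by 0.18 and 0.16, while Lonp1, Pmpca and Afg3l2, all proteases of the organelle, fell by 0.14, 0.09 and 0.08. The list median was 0.01. With library size as the only scaling it was -0.02, with 2 rises and 5 falls. In the integrated stress response, the programme of ATF4 target genes, 4 of 26 rose and 6 fell, with a median of 0.01. With library size as the only scaling, 2 rose and 8 fell and the median was -0.02. Atf4 itself rose by 0.11 and the serine synthesis gene Phgdh by 0.18. Ddit4, an mTORC1 inhibitor that hypoxia also induces, had 180, 169 and 189 CPM against 242, 224 and 238, and fell by 0.38. Chac1, a glutathione-degrading enzyme, fell by 0.22, and Ddit3, encoding CHOP, was at -0.01 (adjusted p not under the threshold).

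Cytosolic ribosomal protein genes gave 22 rises of 79 tested and no fall, with a median log2 fold change of 0.20 and 78 of the 79 values above 0. Over all tested genes 10.7% rose and 9.64% fell. Rps29, of the small subunit, had 10.5, 8.72 and 9.74 CPM against 6.52, 7.72 and 7.13, and rose by 0.43 (adjusted p = 0.0052), without overlap. Rpl17, of the large subunit, had 24.1, 25.0 and 24.7 against 20.1, 18.0 and 21.2, and was called at an adjusted p of 0.043 that was lost on leaving out control library 2 or 3, doxycycline library 3, any 1 combined library, or dTAG-13 library 1 or 2. These genes have many processed pseudogenes, so their counts depend on how the authors treated reads that map to several places.

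These lists hold short transcripts, and the fold changes of all genes moved with transcript length. Length and GC content were those of the longest GENCODE transcript of each gene. In the eighth of genes with the shortest transcripts (median 1152 bases, 1469 genes), 21.2% were higher and 2.25% lower, and the median log2 fold change was 0.08. In the eighth with the longest (median 7820 bases), 8.99% were higher and 15.7% lower, and the median was -0.03. Doxycycline without dTAG-13 gave medians of -0.04 and 0.03 in those eighths. With length and GC content as offsets, 25 mitochondrial ribosomal protein genes, 20 oxidative phosphorylation genes and 13 cytosolic ribosomal protein genes were called higher, none lower. Over all tested genes the share called higher with these offsets was 9.75%. Rps29 was then not called (adjusted p = 0.12). Type I interferon-stimulated genes, with 21 higher and 1 lower, and mitosis genes, with 26 higher, had the same counts with and without the offsets. The interaction was then called for 22.8% of genes, 15.9% more positive with dTAG-13 and 6.86% more negative.

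**Figure D4:**
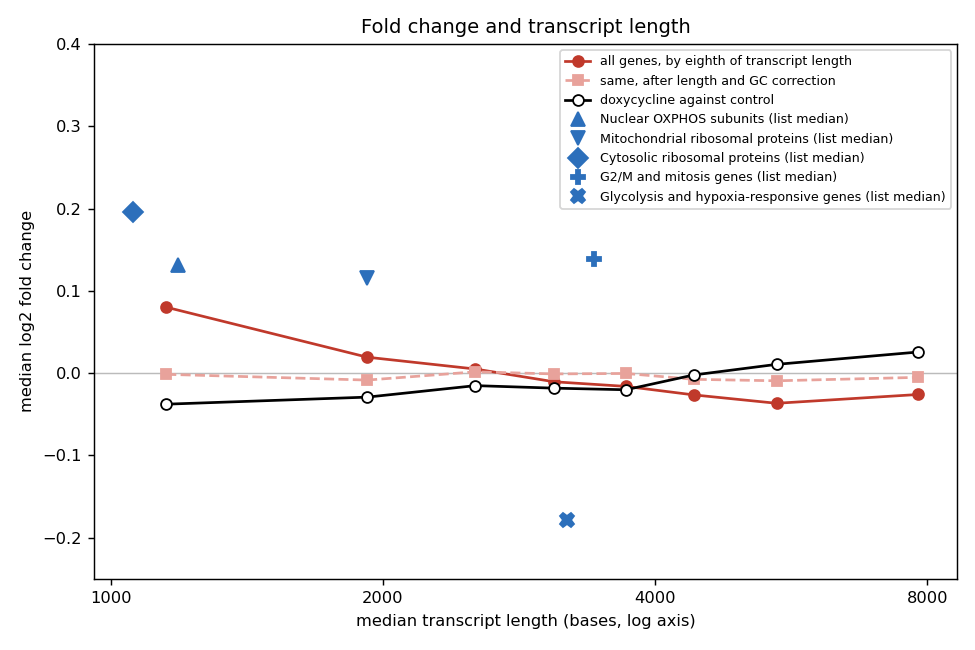
Median log2 fold change (y axis) against median transcript length in bases (x axis, log scale) for eighths of all genes with a length: combined against dTAG-13 (red), the same after correction for length and GC content (dashed) and doxycycline against control (open), with the medians of 5 gene lists in blue. The red line falls from 0.08 to -0.03 while the open points rise from -0.04 to 0.03; the mitosis list at 0.14 and the hypoxia list at -0.18 lie off the line.

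Of 31 tested glycolysis and hypoxia-responsive genes, 24 fell and 1 rose, with a median log2 fold change of -0.18. Over all tested genes 9.64% fell and 10.7% rose. Many genes of such lists are targets of HIF transcription factors, whose activity was not measured here. The HIF core element is ACGTG (reverse complement CACGT, and part of the E-box CACGTG). In the 250 bases before the start it was found for 18 of the 29 list genes with a RefSeq promoter (62.1%). For tested genes with a RefSeq promoter the share was 25.3%. Windows of 100 bases are shown for 3 members with large falls whose promoters hold the core, with the core in capitals: Ankrd37 at chr8:45999851-45999950 (- strand), Car9 at chr4:43506926-43507025 (+ strand) and P4ha2 at chr11:54100798-54100897 (+ strand), all GRCm38.p6.
Ankrd37: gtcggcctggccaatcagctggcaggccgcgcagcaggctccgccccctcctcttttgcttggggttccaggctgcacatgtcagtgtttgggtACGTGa
Car9: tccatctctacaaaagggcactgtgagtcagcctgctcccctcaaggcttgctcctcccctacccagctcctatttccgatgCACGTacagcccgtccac
P4ha2: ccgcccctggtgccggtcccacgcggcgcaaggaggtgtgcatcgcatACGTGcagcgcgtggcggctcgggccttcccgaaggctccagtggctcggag
In these windows the core starts 6, 18 and 78 bases before the annotated start of Ankrd37, Car9 and P4ha2. The promoter of Adm, the member with the largest fall, held no match in the bases searched.

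Adm, encoding the vasodilator adrenomedullin, had 4.145, 3.301 and 3.607 CPM in the combined libraries against 7.198, 7.079 and 9.402 in the dTAG-13 libraries, the largest fall of the list (log2 fold change -1.10 ± 0.12, SE). Ankrd37, an ankyrin-repeat HIF target, had 17.6, 16.9 and 16.7 CPM against 26.8, 26.8 and 27.6. P4ha2, a collagen prolyl hydroxylase, had 57.1, 57.0 and 62.0 CPM against 89.8, 84.2 and 84.2. The ranges of all 3 genes were apart, for Adm by the rule that chose it, and Ankrd37 and P4ha2 fell by 0.67 and 0.55. Car9, carbonic anhydrase 9, fell by 0.64, from 5.33, 6.50 and 5.41 CPM to 3.39, 4.60 and 3.13. In the glycolytic chain, the platelet and liver phosphofructokinases Pfkp and Pfkl fell by 0.39 and 0.22, the glucose transporter Slc2a1 by 0.35, Tpi1 by 0.14, Aldoa by 0.11 and Ldha by 0.09. Pgk1 and Gapdh did not pass the test (-0.06 and 0.11), and the muscle phosphofructokinase Pfkm was the 1 gene that rose, by 0.12. The HIF prolyl hydroxylases Egln3 and Egln1, themselves HIF targets, fell by 0.43 and 0.29, and the mitophagy receptors Bnip3 and Bnip3l by 0.26 and 0.20.

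Without dTAG-13, doxycycline acted on these genes in the other direction for many: 17 rose and 3 fell, with a median of 0.10. For 15 of them both tests were called with opposite signs, among them Car9 (0.79 without dTAG-13), Ndrg1 (0.44 without and -0.22 with) and Bnip3 (0.34 without). The interaction was called for 22 of the 31, all more negative with dTAG-13, where 9.64% of all tested genes were. By difference in CPM, the largest falls were those of an unnamed gene ID (Entrez319269), Ero1a, Scd2 and Ccnd1. Entrez319269 had 1125, 1086 and 1149 CPM in the combined libraries against 1429, 1463 and 1438, and Ero1a, the endoplasmic reticulum oxidase that hypoxia induces, had 820, 833 and 837 against 1089, 1140 and 1098. Ccnd1, encoding cyclin D1, had 1391, 1413 and 1368 against 1614, 1577 and 1617, and Scd2, a stearoyl-CoA desaturase, had 1590, 1651 and 1569 against 1806, 1876 and 1849. The rule that chose these genes required ranges without overlap, and the log2 fold changes ran from -0.20 for Scd2 to -0.42 for Ero1a.

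Among the other large falls, most genes were of low level. Kctd11, an adaptor of cullin ligases that antagonises Hedgehog signalling, had 10.97, 10.69 and 11.49 CPM against 20.37, 21.49 and 19.98, and fell by 0.90. Prdm1, encoding the repressor BLIMP-1, had 1.83, 2.12 and 1.82 CPM against 3.60, 4.41 and 3.75, and fell by 1.03. Neither changed with doxycycline alone at the threshold (log2 fold changes of -0.01 and 0.12), and the interaction was called for both. The non-coding Lncenc1, the autophagy gene Atg9b, the receptor gene Gpr35 and Aire, the autoimmune regulator, fell by 1.13, 1.08, 0.96 and 0.86, all from between 1.928 and 4.098 CPM in the dTAG-13 libraries. Tmem62, a membrane protein gene, fell by 0.94, but not at the threshold without combined library 3 (adjusted p = 0.059).

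Fatty acid synthesis gave 7 falls and 1 rise in 13 tested genes, or 6 and 2 with length and GC offsets. With library size as the only scaling there were 8 falls and 1 rise. Over all tested genes 9.64% fell and 10.7% rose, or 16.5% and 7.17% with that scaling. The desaturases Fads2, Scd2, Scd1 and Fads1 fell by 0.22, 0.20, 0.19 and 0.17, and Acly, which supplies cytosolic acetyl-CoA, by 0.20. Fasn, the synthase, was the 1 that rose, by 0.13. Fads2 had 101, 102 and 101 CPM in the combined libraries against 118, 118 and 119. Cholesterol synthesis and uptake gave 8 falls and no rise in 25 tested genes, or 9 falls and no rise with library size as the only scaling. Stard4, a sterol carrier, had 38.6, 37.5 and 40.7 CPM against 47.1, 46.5 and 46.1. Its ranges did not overlap, and it fell by 0.26 on the log2 scale.

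Immediate early genes, the transcription factors and phosphatases induced first by growth factors, gave 10 rises and 3 falls in 25 tested. Over all tested genes 10.7% rose and 9.64% fell. Egr1 had 238, 245 and 230 CPM in the combined libraries against 189, 189 and 187, and Dusp1, a MAP kinase phosphatase, had 11.05, 8.409 and 9.096 against 5.976, 5.889 and 6.337. Both rose without overlap, by 0.33 and 0.64. Fos had 2.72, 2.48 and 2.68 CPM against 1.67, 1.70 and 2.27, with a log2 fold change of 0.48 that did not pass (adjusted p = 0.057) except without dTAG-13 library 3 (0.028) or with a stricter filter. Doxycycline without dTAG-13 gave 4 rises and 13 falls on this list and a median of -0.27 against 0.22 here. The interaction was called for 18, positive for 15, where it was called for 22.9% of all tested genes and positive for 13.2%. It was 1.95 for Fos and 1.69 for Egr1. Ccn1, a matricellular target of YAP, differed likewise: 327, 342 and 319 CPM against 221, 235 and 235, a rise of 0.52, against a fall of 1.44 without dTAG-13 (interaction 1.96, adjusted p = 4.1e-33). Of the other 19 tested YAP/TEAD targets 1 was called, Ankrd1, which fell by 0.31. Thus 2 of the 20 were called, where 20.4% of all tested genes were. The counts for all 20 depended on the scaling: 1 rose and 9 fell with library size as the only scaling, and 3 rose and 2 fell with length and GC offsets. Over all tested genes 7.17% rose and 16.5% fell with library size only, and 9.75% and 8.51% with the offsets.

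Of 16 tested genes that report or restrain ERK signalling, 8 fell and 1, Phlda1, rose by 0.12. None rose with library size as the only scaling (9 fell) or with length and GC offsets (7 fell). Over all tested genes 10.7% rose and 9.64% fell. These shares were 7.17% and 16.5% with library size only, and 9.75% and 8.51% with the offsets. Spry4, a receptor tyrosine kinase inhibitor, had 49.2, 50.1 and 47.0 CPM against 57.2, 57.5 and 60.0, and the ERK phosphatase Dusp4 had 13.1, 14.7 and 13.9 against 17.5, 16.9 and 16.4. The ranges were apart, with falls of 0.26 and 0.28, and Ccnd1, Etv4 and Etv5 fell by 0.21, 0.19 and 0.16. Cytoskeletal targets of SRF and MRTF gave 7 rises and 1 fall in 18, among them Tagln2 (0.20), Tpm1 (0.14), Myh9 (0.13) and Actb (0.06), while Actn1 fell by 0.11. Without dTAG-13 library 2, 5 of the 18 were called, and with library size as the only scaling 3 rose and 3 fell. In the NF-kappaB list, Nfkbiz rose by 0.37, and Vcam1, Nfkb2 and Ptgs2 fell by 0.15, 0.11 and 0.09. These were the 4 called of 16, where 20.4% of all tested genes were called.

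G2/M and mitosis genes rose in 26 of 35 tested and none fell, with a median log2 fold change of 0.14 and all 35 values above 0. Mki67, the proliferation marker Ki-67, had 141, 144 and 140 CPM against 117, 114 and 120. Top2a, topoisomerase II alpha, had 979, 980 and 973 CPM against 832, 851 and 834, and Ccnb1, encoding cyclin B1, had 87.2, 93.6 and 87.6 against 74.0, 78.4 and 79.3. No ranges overlapped, and the rises were 0.28, 0.22 and 0.21. The median level of the list in the combined libraries nonetheless lay below that in the control and doxycycline libraries, where dTAG-13 was absent. Without dTAG-13, doxycycline raised 10 and lowered 5, and the interaction was called for 21, positive for 20. Over all tested genes the interaction was called for 22.9%, positive for 13.2%. DNA replication and G1/S genes gave 3 rises (7.5%) and 2 falls (5%) in 40, with a median of 0.02. Of all tested genes 10.7% rose and 9.64% fell. With library size as the only scaling there were 2 rises and 7 falls and the median was -0.02, with length and GC offsets there were 7 rises and 3 falls, and without combined library 2 there were 5 and 3. Tk1, thymidine kinase, rose by 0.24, and Ccne2, cyclin E2, fell by 0.16 with overlapping ranges and was not called without combined library 3 or dTAG-13 library 1 or 2.

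Cdkn1a, encoding the cyclin-dependent kinase inhibitor p21, had 57.0, 56.5 and 58.0 CPM in the combined libraries against 88.0, 83.2 and 87.1. The ranges were far apart and it fell by 0.59 (adjusted p = 1.1e-16), with no call for doxycycline alone (-0.03, adjusted p = 0.49). Of all 23 tested p53 targets, 2 rose (8.70%) and 5 fell (21.7%), Cdkn1a included, with a median of 0.00. Over all tested genes 10.7% rose and 9.64% fell. With library size as the only scaling 1 target rose and 5 fell, with a median of -0.03, and 7.17% and 16.5% of all genes did. Mdm2, Bax and Ccng1 lay between -0.01 and 0.01. The count of 7 called p53 targets was 4 without combined library 1 or without dTAG-13 library 3. Trp53inp1, a p53-induced autophagy gene, fell by 0.59, but the call did not hold without any 1 of the 3 combined libraries or without dTAG-13 library 3.

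Among NRF2 antioxidant targets, 3 of 20 rose (15%) and 5 fell (25%), or 3 and 11 with library size as the only scaling. Over all tested genes 10.7% rose and 9.64% fell, or 7.17% and 16.5% with that scaling. The quinone reductase Nqo1 had 10.3, 10.9 and 9.38 CPM against 7.74, 7.01 and 6.54, and the peroxiredoxin Prdx1 had 649, 636 and 617 against 510, 517 and 509. Both rose without overlap, by 0.52 and 0.31, whereas Hmox1, encoding haem oxygenase 1, fell by 0.28, from 291, 295 and 293 CPM to 239, 249 and 235. Without dTAG-13, Hmox1 rose by 0.51, and the interaction was called (-0.79, adjusted p = 5.0e-18). In the metal list, 2 of 18 rose (11.1%, near the share of all genes) and 4 fell (22.2%), or 1 and 7 with library size as the only scaling. The ferritin heavy chain Fth1 rose by 0.21, and the zinc exporter Slc30a1, at 10.6, 9.98 and 8.94 CPM against 13.9, 13.1 and 13.2, fell by 0.45. Without dTAG-13 Slc30a1 fell by 0.58, with no interaction called (adjusted p = 0.43). Among 29 collagens, laminins, integrins and matrix proteases, 5 rose (17.2%) and 8 fell (27.6%). Beside Col12a1, the fibrillar collagens Col5a2 and Col3a1 rose by 0.29 and 0.22, while Col18a1 of the basement membrane, at 117, 114 and 115 CPM against 151, 148 and 150, fell by 0.38 and Col4a1 by 0.14. All 12 interactions called in this list were negative, where 9.64% of all tested genes had a negative one.

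**Figure D5:**
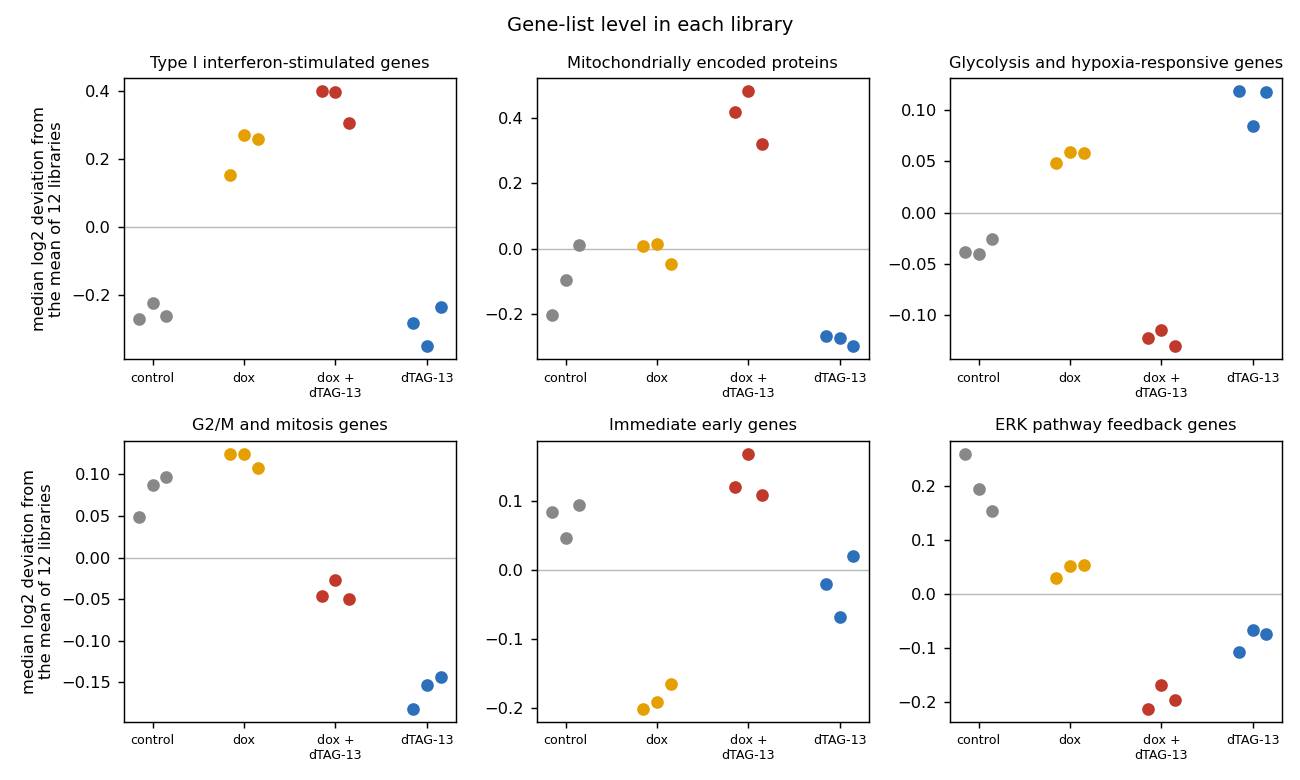
Median over the members of 6 gene lists of the log2(CPM + 0.5) deviation from the mean of the 12 libraries (y axis), for each library (points) by treatment group (x axis). The 6 were picked for display from the 27 pathway lists, not by a rule. In these 6 panels the combined libraries (red) and the dTAG-13 libraries (blue) do not overlap: red lies above blue except for the hypoxia and ERK feedback lists.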

How the data were processed

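The values are unnormalised counts of reads per gene ID, as the authors deposited them, for all 12 libraries. Per the submitters' processing notes, reads were handled with bcl2fastq 2.17 and featureCounts on mm10; no aligner, annotation, strand setting or treatment of multiply mapped reads is given in the sources used here. Libraries were made from poly(A)-selected RNA, per the labels' protocols. Gene IDs were matched to RefSeq (25275 IDs) or, where absent there, to GENCODE symbols (18 IDs). Mitochondrial genes were matched to RefSeq but are written with their GENCODE symbols. The 1886 IDs that stayed unnamed, with 2.10% of reads, are written as Entrez followed by the ID. Counts were fitted with edgeR 4.0.16 in R 4.3.3: filterByExpr by group, TMM scaling, a robust quasi-likelihood fit of 1 mean per group over all 12 libraries, and two-sided tests with Benjamini-Hochberg adjustment over all 12910 genes tested. CPM values use the TMM library size. On counts simulated for this comparison (12791 genes), the fit recovered 92% of genes changed by 1 on the log2 scale and 79.6% of those changed by 0.5; 18 calls, 9.57% of all, were false, above the 5% aimed at.

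The comparison, the gene lists (27 pathway lists, 4 marker lists) and the rule for named genes were chosen with earlier results of these data known. The rule took 6 preset genes (B2m, H2-D1, H2-K1, Crbn, Fkbp1a and Adpgk); the 8 largest log2 fold changes in each direction among called genes of at least 1 CPM without overlap; the 4 largest CPM differences in each direction; up to 2 called members per list; and the 3 largest interactions in each direction. Other list members were named as examples after their values were seen. Depth was 22165538 to 31257320 reads in the 6 libraries compared. Replicate numbers were not treated as pairs, since same-numbered deviations did not correlate. Alternatives were RLE scaling, library size only, other filters, only the groups compared, a replicate block, offsets for transcript length and GC content, DESeq2 1.42.0, and leaving out each library. Length and GC content were taken from the longest GENCODE transcript of each gene ID.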

Additional observations from a re-analysis of the deposited data

Results flagged for a closer look

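For 46 of the 78 genes named by rule, the doxycycline difference with dTAG-13 was not the same as that without it by edgeR's interaction test at an adjusted p under 0.05, where 22.9% of all tested genes passed. The rule itself took the 3 largest interactions in each direction and genes with large fold changes, so the 2 shares are not comparable. Each value below is the log2 fold change with dTAG-13 minus that without it, 24 positive and 22 negative.

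Among transcripts of the mitochondrial genome the difference was 0.749 for mt-Cytb, 0.446 for mt-Atp6, 1.19 for mt-Rnr2, 0.873 for mt-Nd1 and 0.895 for mt-Nd4l. Nuclear genes of mitochondrial proteins gave 0.287 for Mrpl41, 0.346 for Mrpl12, 0.305 for Hspe1, 0.248 for Grpel1 and -0.387 for Mtrf1l. Among immediate early genes and related transcripts, Fos gave 1.95, Ccn1 1.96, Egr1 1.69, Dusp1 1.21 and Nfkbiz 0.689, and Spry4 and Tpm1 gave 0.147 and 0.154. Of interferon and adhesion genes, Ifit3b gave 0.688, Cxcl10 0.218, Gbp5 -0.493 and Vcam1 -0.237.

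Genes of hypoxia and glycolysis were more negative with dTAG-13: Adm at -1.51, Ankrd37 at -1.04, Ero1a at -0.725, Ddit4 at -0.666 and Hk2 at -0.195. Adpgk gave -0.142, Chac1 -0.18, Nqo1 -0.422, Scd2 -0.359, Fads2 -0.162 and Col18a1 -0.226. Cell cycle and p53 target genes gave 0.269 for Tk1, 0.202 for Mki67, 0.165 for Aspm, -0.555 for Cdkn1a and -1.13 for Trp53inp1. Rps29 gave 0.816, and Rbx1 and Fkbp1a of the degradation machinery and tag gave 0.348 and 0.115. Among genes of low level, Gpr35 gave -1.53, Hyal1 -1.51, Prdm1 -1.15, Aire -1.08 and Kctd11 -0.882. The unnamed Entrez319269 gave -0.417.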

How the results depend on the processing

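The count of 2630 called genes ranged from 2106 with DESeq2 to 3058 with library size as the only scaling, and from 1990 (without combined library 1) to 2832 (without control library 3) over the 12 fits that left out 1 library each. Of the 2358 genes called with length and GC offsets, 2057 were called without them, all with the same sign. The count at 2-fold or more was 73, but 45 with a filter of at least 1 CPM in 3 libraries and 43 with DESeq2; the first tests fewer low genes, and for the second the cause was not tested. Leaving out 1 library gave 66 to 88. The 2950 called interactions ranged from 2467 to 3242 over the other settings and from 2374 to 3042 on leaving out 1 library; 1705 of them were positive, against 2059 of 2945 with length and GC offsets and 818 of 3242 with library size only. Over all genes, same-numbered libraries did not deviate together (correlations of 0.000301, -0.00433 and -0.00345, and no library was most like its own number), so no pairing was detected. Such correlations cannot exclude a difference shared by number in some genes. With a replicate block 2490 genes were called, 70 of them at 2-fold, with 2810 interactions. The block with length and GC offsets gave 2225, 64 and 2832. No called named gene reversed its direction in these alternatives. H2-K1 and H2-D1, not called at 0.01 each, were at -0.03 each with library size only and at -0.02 and -0.01 with length and GC offsets, again not called, and each was also slightly below 0 on leaving out 1 combined library. Of the 78 named genes, 12 lost their call in at least 1 alternative and 2 gained one. DESeq2 gave no adjusted p for Dpt, Olfr288 and the Hyal1 interaction, and fitting only the groups compared gives no interaction. With 3 technical libraries a group, changes between cultures cannot be assessed, and genes near 1 CPM rest on few reads.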

Other observations

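Several receptors and secreted factors outside the gene lists also rose with doxycycline among dTAG-13 treated cells, and were picked after their values were seen. Tnfsf10, encoding the death ligand TRAIL, had 3.12, 4.05 and 3.83 CPM in the combined libraries against 0.996, 1.16 and 1.41 in the dTAG-13 libraries, a log2 fold change of 1.63. Vdr, the vitamin D receptor, rose by 1.51, from 4.72, 4.60 and 5.54 CPM to 13.8, 15.3 and 13.4. Pde4b, a cAMP phosphodiesterase, rose by 1.56, Angptl4, an inhibitor of lipoprotein lipase, by 1.49, and Ptger4, a prostaglandin E2 receptor, by 1.47. Without dTAG-13 the same 5 genes had log2 fold changes of 1.36 (Tnfsf10), 1.93 (Vdr), 1.62 (Pde4b), 1.34 (Angptl4) and 1.17 (Ptger4), and of these the interaction was called for Vdr (-0.41, adjusted p = 0.028). Apol7e, an apolipoprotein L gene, was unlike them, with 1.53 with dTAG-13 and -0.06 without it (interaction adjusted p = 0.0028). Apln, encoding the peptide apelin, fell by 0.85, from 17.6, 15.6 and 17.1 CPM to 9.85, 9.31 and 8.87, and had a log2 fold change of 0.10 without dTAG-13.

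Lars2, encoding the mitochondrial leucyl-tRNA synthetase, had 337, 355 and 851 CPM in combined libraries 1 to 3 and 315, 317 and 406 in the dTAG-13 libraries. Its log2 fold change of 0.58 did not pass the test (adjusted p = 0.36). In the doxycycline libraries it had 203, 202 and 377 CPM, and in the control libraries 290, 267 and 278. Entrez100861531 was highest in library 3 of all 4 groups, with 9850, 11179 and 18224 CPM in the combined, 9189, 9045 and 11893 in the dTAG-13, 5357, 5720 and 9746 in the doxycycline and 7094, 5894 and 8245 in the control libraries. What these libraries share was not tested.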
